A study of Mus musculus with 15 samples.

Results

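The MS4A family members Ms4a4a, Ms4a4b, Ms4a4c, Ms4a6b, Ms4a6c, Ms4a6d and Ms4a7 were followed in RNA sequenced from cortical microglia of mice. The members were taken by name, by a rule that uses no measured value, and found through their NCBI Gene IDs. Earlier results of these data were known when the members were chosen. All 7 are among the 36528 gene IDs measured, and 6 of them had enough reads to be tested. The 15 libraries hold RNA of cells sorted for green fluorescent protein expressed from Cx3cr1, the fractalkine receptor gene, which marks microglia in the brain. The mice were PS2APP (n = 9), an Alzheimer's disease model line that expresses mutant forms of human presenilin 2 and of human amyloid precursor protein, or mice without the transgenes, labelled non-Tg (n = 6), against which PS2APP was compared. Animals were 14 or 15 months old: 4 PS2APP and 2 non-Tg libraries came from 14 months, and 5 PS2APP and 4 non-Tg libraries from 15 months. Every mouse of both genotypes carried the Cx3cr1::GFP reporter. The copy number of the reporter, the promoters of the transgenes and the sex of the mice were not stated in the sources used. The labels also do not say that each library came from a separate mouse, so p-values measure the spread between these libraries, which may be technical.

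MS4A proteins are small membrane proteins that cross the membrane several times and associate with receptors and other surface proteins. The founding members are CD20 on B cells and the beta chain of the high-affinity IgE receptor on mast cells, while the members followed here are known mainly from macrophages, microglia, monocytes and T cells. In people, variants at the MS4A locus are associated with the risk of Alzheimer's disease and with the amount of soluble TREM2 in cerebrospinal fluid, and the associated genes there include MS4A4A and MS4A6A. The mouse genome carries several copies related to each of these human genes in a tandem cluster, so the mouse Ms4a4 and Ms4a6 genes are not single counterparts of the human ones.

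The 7 genes lie in one cluster on chromosome 19 (GRCm38), within 284 kb between 11321039 and 11604804 by RefSeq's annotation. All are annotated as protein coding. Ms4a7 opens the stretch at chr19:11321039-11336146 on the minus strand. Ms4a4a (chr19:11375488-11392915), Ms4a4c (chr19:11404717-11427246), Ms4a4b (chr19:11443558-11463549), Ms4a6c (chr19:11469353-11487182) and Ms4a6b (chr19:11518559-11530403) follow on the plus strand. Ms4a6d closes it at chr19:11586606-11604804 on the minus strand.

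The members are related copies, so their sequences bear on how far reads can be assigned to each. The first 120 coding bases of the 3 Ms4a6 genes, from GENCODE M21 transcripts of the same build, are shown to let them be told apart; capitals mark bases that are not the same in all 3.
Ms4a6b: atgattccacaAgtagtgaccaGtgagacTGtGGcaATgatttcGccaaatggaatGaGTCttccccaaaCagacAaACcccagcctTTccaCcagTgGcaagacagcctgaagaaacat
Ms4a6c: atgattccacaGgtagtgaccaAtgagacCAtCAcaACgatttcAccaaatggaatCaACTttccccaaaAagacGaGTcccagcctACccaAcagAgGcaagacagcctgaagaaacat
Ms4a6d: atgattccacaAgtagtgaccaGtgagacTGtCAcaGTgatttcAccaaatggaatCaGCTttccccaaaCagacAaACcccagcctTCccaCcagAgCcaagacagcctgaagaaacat
In this stretch 98 of the 120 bases were shared by all 3 genes. Over the whole coding sequence Ms4a6b was identical to Ms4a6c at 85.4% of aligned bases and to Ms4a6d at 81.2%, and Ms4a6c and Ms4a6d were identical at 79.0%. The first coding bases of the Ms4a4 pair that resembles each other most, Ms4a4b and Ms4a4c, are shown for the same reason, with capitals at bases that are not the same in Ms4a4a, Ms4a4b and Ms4a4c.
Ms4a4b: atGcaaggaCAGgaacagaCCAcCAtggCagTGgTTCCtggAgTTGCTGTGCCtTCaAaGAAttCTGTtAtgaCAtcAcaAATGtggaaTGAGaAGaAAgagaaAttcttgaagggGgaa
Ms4a4c: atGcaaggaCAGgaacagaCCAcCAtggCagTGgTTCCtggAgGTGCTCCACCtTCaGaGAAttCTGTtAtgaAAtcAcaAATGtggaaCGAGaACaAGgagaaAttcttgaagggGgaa
These 2 coding sequences were identical at 91.7% of aligned bases, the closest pair of the family.

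The authors counted reads that align uniquely to a gene model, so a read that lies wholly in a stretch shared by 2 genes is counted for neither. Of all windows of 50 bases in the transcripts, 11.3% of those of Ms4a6c also occurred in a transcript of another gene, as did 8.48% of those of Ms4a4c. The share was 5.89% for Ms4a6b, 4.19% for Ms4a4b and 2.92% for Ms4a6d, and it was 0 for Ms4a4a and Ms4a7. Ms4a6b and Ms4a6c had 109 such windows in common. By this search most of each transcript was open to unique reads of this length. The search compared transcripts in their own direction only, so it cannot see a gene on the other strand. Of the 2050 exon bases of Ms4a6c, 1088 are also exon bases of an antisense RNA, BE692007. If the counting ignored strand, which was not stated, more of Ms4a6c may have been closed to unique reads. The read length was also not stated in the sources used. Levels of the Ms4a6 genes and of Ms4a4b and Ms4a4c are therefore uncertain to an unknown extent.

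Ms4a6d, Ms4a6b and Ms4a6c, the relatives of human MS4A6A, carried nearly all of the RNA of the 7 members. On the per-length scale of the deposited nRPKM (reads per kilobase of gene, adjusted for the size of the library), Ms4a6d averaged 18.1 ± 3.30 in PS2APP libraries and 21.1 ± 2.89 in non-Tg libraries (SD, n = 9 and 6). Ms4a6b averaged 8.85 ± 1.51 nRPKM in PS2APP and 10.4 ± 2.92 in non-Tg libraries. Ms4a6c averaged 5.09 ± 3.15 nRPKM in PS2APP and 2.90 ± 1.69 in non-Tg libraries. On this scale the order of these 3 genes held in nearly every library, with Ms4a6d above Ms4a6b in 15 of 15 and Ms4a6b above Ms4a6c in 14. In PS2APP sample 7 Ms4a6c stood 1.21 times as high as Ms4a6b in nRPKM. The place of Ms4a6c depends on the gene lengths behind nRPKM. In CPM (counts scaled to library size and not to length) Ms4a6c averaged 73.2 in PS2APP libraries, above Ms4a6b at 56.0. In non-Tg libraries it averaged 41.6 CPM, below Ms4a6b at 65.9. So nRPKM treats Ms4a6c as the longer gene, while the GENCODE transcripts compared above had 1841 bases for Ms4a6c and 2680 for Ms4a6b. Of the summed nRPKM of the 7 members, Ms4a6d made up 53.0 ± 6.56% in PS2APP and 58.5 ± 7.05% in non-Tg libraries, Ms4a6b 26.2 ± 4.94% in PS2APP and 28.5 ± 4.83% in non-Tg libraries, and Ms4a6c 14.1 ± 6.39% in PS2APP and 7.78 ± 3.53% in non-Tg libraries.

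Ms4a7, Ms4a4c and Ms4a4a stood below 1 nRPKM on average in both genotypes. Ms4a7 averaged 0.890 ± 0.478 in PS2APP and 0.861 ± 0.752 in non-Tg libraries. Ms4a4c averaged 0.858 ± 0.619 in PS2APP and 0.447 ± 0.341 in non-Tg libraries, and Ms4a4a 0.607 ± 0.542 in PS2APP and 0.431 ± 0.490 in non-Tg libraries. These 3 genes kept no fixed order: Ms4a7 was above Ms4a4c in 9 of 15 libraries and Ms4a4c above Ms4a4a in 10. Ms4a4b, known as a T cell protein, was at the limit of detection, and Ms4a4a was above it in 14 of 15 libraries.

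**Figure D1:**
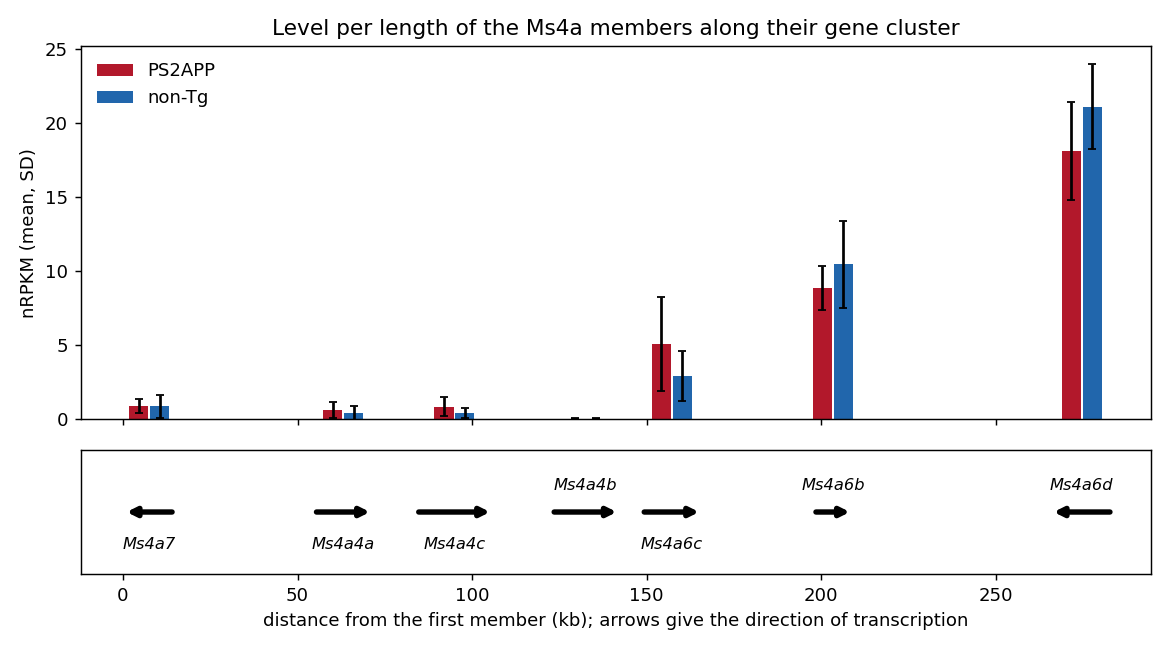
The 7 genes in the order in which they lie along chromosome 19, with bars for the mean nRPKM, the deposited per-length level, and error bars for the SD in PS2APP (n = 9) and non-Tg (n = 6) libraries; arrows give the direction of transcription. The 3 Ms4a6 genes at one end of the cluster stand above the Ms4a4 genes and Ms4a7, and Ms4a4b is near 0.

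Reads per library limit what can be said of each gene. Total counts per library lay between 3664742 and 8455237 (median 5867848), and 1 read was worth between 0.125 and 0.277 CPM (counts scaled to the TMM-adjusted library size). PS2APP samples 1 and 4 and non-Tg samples 9 and 13 stood apart in immediate early genes, at 2471 to 11857 summed CPM, against 98.8 to 172 in the other 11. PS2APP sample 14 and non-Tg samples 12 and 13 were low in Xist, an RNA of female cells, at 16.7 to 47.0 CPM, against 3676 to 7216 in the other 12. Microglial markers were high in every library, with summed levels of 26138 to 38136 CPM in PS2APP and 32659 to 43856 CPM in non-Tg libraries. All 10 of them were tested, none was called, and all 10 had negative log2 fold changes with a median of -0.22.

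No member passed the genotype test. edgeR called 165 of 13994 genes between PS2APP and non-Tg microglia at a Benjamini-Hochberg adjusted p under 0.05, which is 1.18% of genes, of which 134 were higher in PS2APP (0.958%) and 31 lower (0.222%); 0 of the 6 tested members were among them. At an unadjusted p under 0.05 there was 1 member, Ms4a6c, where 11.7% of all genes met that mark. DESeq2 called 388 genes (2.77%) and limma-voom with quality weights 200 (1.43%), and each called 0 members. With no count filter edgeR called 1 member, Ms4a6c, and 2.5% of all genes. Over all libraries 0 members were without overlap between the genotypes, where 0.572% of genes lay wholly higher in PS2APP and 0.0643% wholly lower. The median log2 fold change was 0.37 over the 6 tested members, with 4 positive and 2 negative, and -0.02 over all genes tested, of which 47.3% were positive. The libraries are bulk samples, in which fewer cells of a type and less RNA per cell cannot be told apart.

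**Figure D2:**
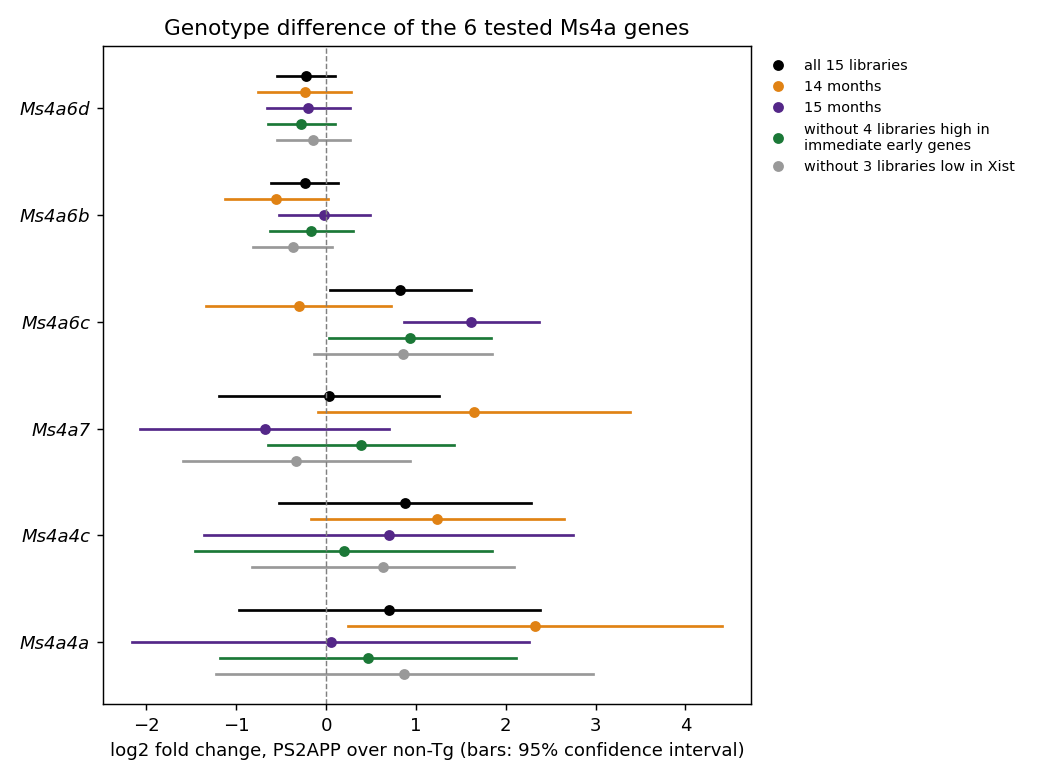
Log2 fold changes of PS2APP over non-Tg for the 6 tested members, with 95% confidence intervals from edgeR, in all libraries, at each age, and with the libraries of high immediate early genes or low Xist left out. Intervals of Ms4a6d and Ms4a6b are narrow and cross 0, those of Ms4a4a, Ms4a4c and Ms4a7 are wide, and Ms4a6c lies at 1.62 at 15 months and at -0.30 at 14 months.

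Ms4a6d, which in mouse macrophages is induced on activation and can pair with the complement receptor VSIG4, was the most abundant member. It ranged from 72.5 to 126 CPM in PS2APP libraries, with a median of 92.9, and from 85.8 to 130 CPM in non-Tg libraries, with a median of 108. Most PS2APP libraries lay in the lower part of the joint range: 1 of 9 was above the non-Tg median and 3 were below the lowest non-Tg library, while the other 6 overlapped with non-Tg. The means were 93.2 ± 17.4 CPM in PS2APP and 108 ± 14.9 CPM in non-Tg libraries, and the log2 fold change of -0.22 ± 0.16 (SE; 95% interval -0.54 to 0.10) did not pass the test (edgeR adjusted p = 0.632). The interval corresponds to between 0.687 and 1.07 times the non-Tg level. At 14 months its 4 PS2APP libraries, at 75.6, 92.9, 98.8 and 104 CPM, lay below the 2 non-Tg libraries, at 107 and 117 CPM, as 8.65% of genes did at that age, and the log2 fold change there was -0.24 ± 0.24 (edgeR adjusted p = 0.790).

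Ms4a6b, its close relative on the other strand, varied little among PS2APP libraries. It spanned 41.7 to 70.8 CPM in PS2APP, with a median of 54.2, and 41.8 to 97.8 CPM in non-Tg, with a median of 66.0. The PS2APP range lay almost wholly within the wider non-Tg range, and the highest value belonged to non-Tg sample 5. With means of 56.0 ± 9.50 CPM in PS2APP and 65.9 ± 18.3 CPM in non-Tg libraries, the log2 fold change was -0.24 ± 0.18 (95% interval -0.61 to 0.14; edgeR adjusted p = 0.661). The interval corresponds to between 0.656 and 1.10 times the non-Tg level. Without non-Tg sample 5 the log2 fold change was -0.089 (edgeR adjusted p = 0.902), and limma-voom with quality weights gave -0.084 (adjusted p = 0.915). By age it was -0.55 at 14 months (edgeR adjusted p = 0.522) and -0.02 at 15 months (adjusted p = 0.984).

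Ms4a6c, a gene of mouse monocytes and macrophages, had the smallest p of the tested members and varied widely between libraries. PS2APP libraries spanned 23.5 to 174 CPM (median 57.7), and non-Tg libraries 18.3 to 85.6 CPM (median 36.1). In PS2APP 8 of 9 libraries were above the non-Tg median and 3 above the highest non-Tg library, and the groups overlapped. The means were 73.2 ± 44.9 CPM in PS2APP and 41.6 ± 24.1 CPM in non-Tg libraries, and the log2 fold change was 0.83 ± 0.38 (95% interval 0.04 to 1.61), with an unadjusted p of 0.0394 and an edgeR adjusted p of 0.394. The estimate was 1.77-fold, with an interval of 1.03 to 3.05. Without PS2APP sample 7, the highest library, it was 0.57 on the log2 scale (edgeR adjusted p = 0.574), and without non-Tg sample 5 it was 1.16 (adjusted p = 0.167). With the 4 libraries of high immediate early genes left out it was 0.93 (adjusted p = 0.315), and without the 3 low in Xist 0.86 (adjusted p = 0.492).

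**Figure D3:**
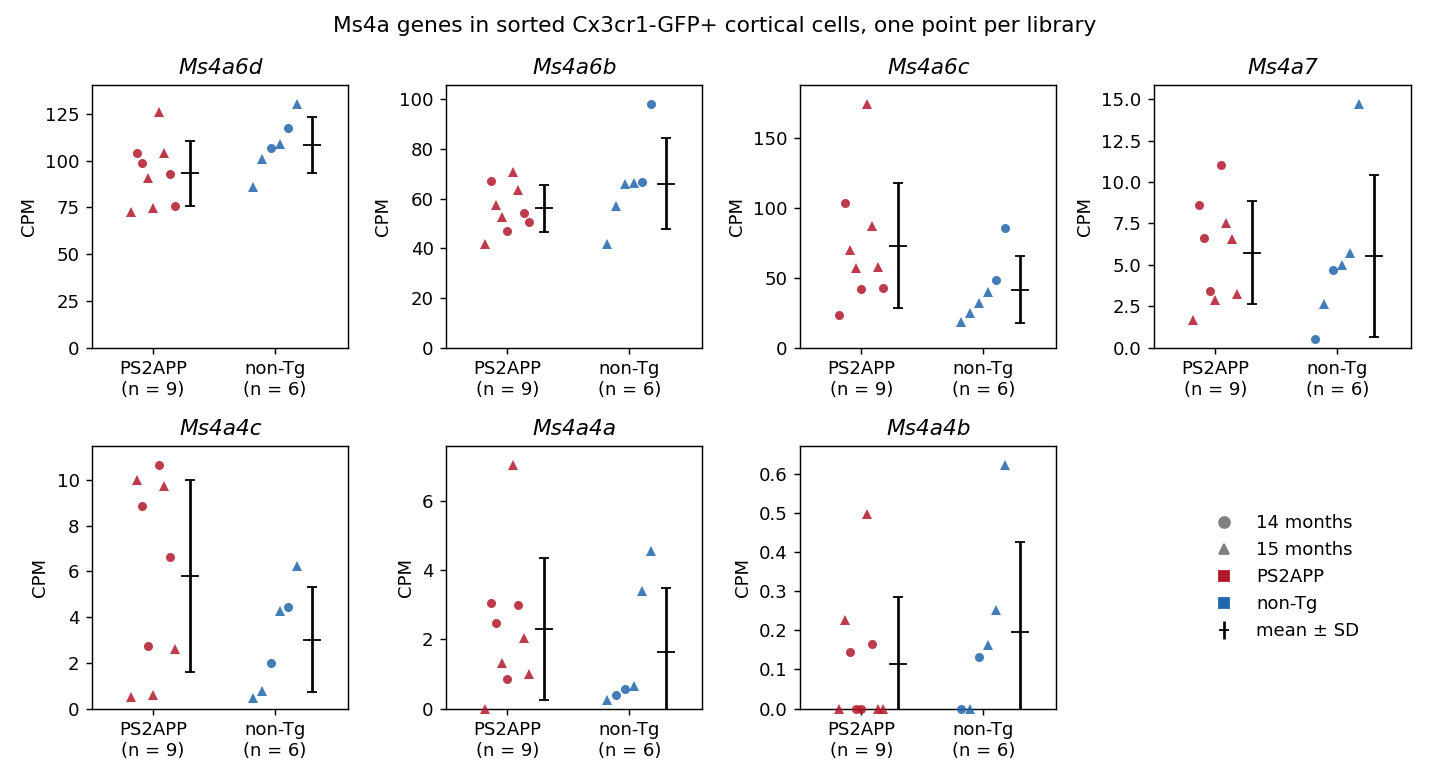
Each point is the CPM of a member in 1 library of PS2APP and non-Tg microglia, with group means and SD. Ms4a6c spans 23.5 to 174 CPM in PS2APP and 18.3 to 85.6 CPM in non-Tg libraries, while Ms4a6b and Ms4a6d stay within a narrower range, and all 7 members overlap between the genotypes.

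The spread of Ms4a6c stood out from that of the other Ms4a6 genes. The biological coefficient of variation is edgeR's estimate of the spread between libraries around the fit of age and genotype, beyond counting error. This fit had no interaction term, so a genotype difference that varies with age adds to the coefficient. For Ms4a6c the coefficient was 0.474, higher than that of 97.6% of the 7032 genes with a mean of at least 20 CPM. Ms4a6b had 0.253 and Ms4a6d 0.223, both below the median of 0.285. The nRPKM ratio of Ms4a6c to Ms4a6b ran from 0.204 to 1.21 in PS2APP and from 0.121 to 0.419 in non-Tg libraries.

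Ms4a6c was also compared within each age. At 15 months it stood at 57.3, 57.7, 70.0, 87.0 and 174 CPM in the 5 PS2APP libraries, against 18.3, 24.9, 32.4 and 39.8 CPM in the 4 non-Tg libraries. Every PS2APP library was above every non-Tg library at this age, a pattern shown by 2.76% of the genes tested there, and 1.82% lay wholly lower. It was the 1 member without overlap at 15 months. The log2 fold change was 1.62 ± 0.36 (95% interval 0.87 to 2.37), with an unadjusted p of 0.000314, and it missed the threshold with an edgeR adjusted p of 0.0596. At that age 0.476% of genes were called, and 11.5% were at an unadjusted p under 0.05.

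At 14 months Ms4a6c stood at 23.5, 42.2, 43.1 and 104 CPM in the 4 PS2APP libraries, against 48.6 and 85.6 CPM in the 2 non-Tg libraries. The lowest 3 PS2APP libraries lay below both non-Tg libraries and the highest above both, so the groups overlapped. The log2 fold change was -0.30 ± 0.47 (95% interval -1.33 to 0.73; edgeR adjusted p = 0.882). The genotype by age interaction, which tests the difference between the ages itself, was 1.96 ± 0.62 with an unadjusted p of 0.00493 and an edgeR adjusted p of 0.618, so a difference between the ages was not called. For the interaction edgeR called 0 of 13994 genes, with 7.42% at an unadjusted p under 0.05 and 6 called in DESeq2; Ms4a6c was the 1 member at that unadjusted mark.

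**Figure D4:**
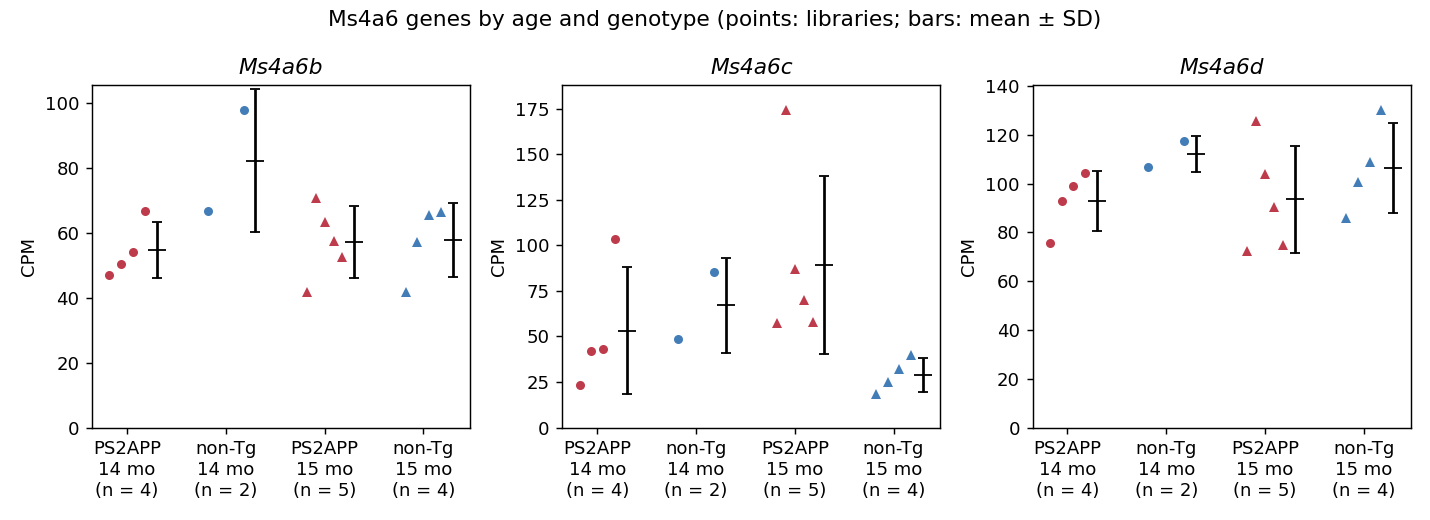
CPM of the 3 Ms4a6 genes in each library at 14 and 15 months, PS2APP beside non-Tg, with bars for the mean and SD. At 15 months the 5 PS2APP libraries of Ms4a6c lie at 57.3 CPM or more and the 4 non-Tg libraries at 39.8 CPM or less; at 14 months its genotypes overlap.

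Ms4a6c overlaps an antisense long noncoding RNA, BE692007, which lies within it on the minus strand (chr19:11473447-11482579). In the GENCODE models 1088 of the 2050 exon bases of Ms4a6c were also exon bases of BE692007. Whether the counting used strand was not stated in the sources used, and without strand reads in those shared bases cannot be told apart. BE692007 had 5.71 ± 3.04 CPM in PS2APP and 8.05 ± 6.43 CPM in non-Tg libraries, and did not pass the test (log2 fold change -0.29, edgeR adjusted p = 0.863). Its highest library was non-Tg sample 11 at 19.5 CPM, in which Ms4a6c had 24.9 CPM. The next highest, PS2APP sample 14 at 13.2 CPM, had 70.0 CPM of Ms4a6c. PS2APP sample 7, the highest in Ms4a6c at 174 CPM, had 4.31 CPM of BE692007. Any effect of the shared bases on the counts of Ms4a6c was not tested. Ms4a4c shares 28 of its 1751 exon bases with a pseudogene on the other strand, Gm5692.

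Ms4a4c, known from mouse monocytes, was low and scattered. It ranged from 0.498 to 10.6 CPM in PS2APP libraries, with a median of 6.63, and from 0.465 to 6.22 CPM in non-Tg libraries, with a median of 3.12. In PS2APP 5 of 9 libraries were above the highest non-Tg library, and the 2 lowest were close to the lowest non-Tg one. Its reads numbered 279 in PS2APP and 96 in non-Tg libraries, and the log2 fold change was 0.88 ± 0.67 (95% interval -0.52 to 2.28; edgeR adjusted p = 0.666). With the 4 libraries of high immediate early genes left out it was 0.20 (adjusted p = 0.942).

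Ms4a4a, a macrophage gene whose human relative is associated with soluble TREM2, had the fewest reads of the tested members, 108 in PS2APP and 55 in non-Tg libraries. It ranged from 0 to 7.03 CPM in PS2APP, with a median of 2.05, and from 0.251 to 4.56 CPM in non-Tg, with a median of 0.604. PS2APP sample 7 was the highest, PS2APP sample 1 had no read, and the ranges overlapped, although 8 of 9 PS2APP libraries were above the non-Tg median. The log2 fold change was 0.70 ± 0.81 (95% interval -0.97 to 2.38; edgeR adjusted p = 0.806), and it was 0.07 without PS2APP sample 7 and 1.21 without non-Tg sample 11.

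Ms4a4a was compared at each age in the same way. At 14 months the 4 PS2APP libraries had 0.864, 2.48, 2.99 and 3.06 CPM, against 0.396 and 0.554 CPM in the 2 non-Tg libraries. The groups did not overlap there, as for 10.2% of the genes tested at 14 months, and the log2 fold change of 2.32 ± 0.95 missed the threshold (edgeR adjusted p = 0.429), with an unadjusted p of 0.0316 where 10.1% of genes were under 0.05. At 15 months it was 0.05 (adjusted p = 0.992), and the interaction of -2.23 ± 1.67 was not called (edgeR adjusted p = 0.776). The interaction was -3.27 without PS2APP sample 7 and -1.63 without non-Tg sample 11 (edgeR adjusted p = 0.768 and 0.770).

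Ms4a7, a gene that marks border-associated macrophages more than resting microglia, did not separate the genotypes. It ranged from 1.70 to 11.02 CPM in PS2APP libraries, with a median of 6.58, and from 0.528 to 14.7 CPM in non-Tg libraries, with a median of 4.84. The non-Tg libraries held both the lowest value, in sample 13, and the highest, in sample 9. The log2 fold change was 0.03 ± 0.59 (95% interval -1.20 to 1.25; edgeR adjusted p = 0.993), and it lay between -0.39 without non-Tg sample 13 and 0.57 without non-Tg sample 9. The same difference was 0.90 in limma-voom with quality weights (adjusted p = 0.573). By age it was 1.64 at 14 months and -0.68 at 15 months (edgeR adjusted p = 0.533 and 0.734), with an interaction of -2.24 ± 1.11 (adjusted p = 0.671). The interaction was -4.43 without non-Tg sample 5 (unadjusted p = 0.00615, edgeR adjusted p = 0.797), -1.58 without non-Tg sample 9 (adjusted p = 0.744) and -1.34 without non-Tg sample 13 (adjusted p = 0.802).

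Ms4a4b did not have enough reads for the test. It was covered by 5 reads in 4 PS2APP libraries and 7 reads in 4 non-Tg libraries. Pooled over libraries this was 0.103 CPM in PS2APP (exact Poisson 95% interval 0.0336 to 0.241) and 0.192 CPM in non-Tg (0.0770 to 0.395). The intervals cover counting error only and overlap. Of the 9 measured T and NK cell markers, the T cell receptor complex genes Cd3d and Cd3e had 0 reads in PS2APP libraries and 23 and 39 reads in non-Tg libraries. The reads of each of these genes came from only 3 non-Tg libraries. Cd4 had 91 reads in PS2APP and 74 in non-Tg libraries, Klrb1c, an NK cell receptor gene, 34 in PS2APP and 2 in non-Tg libraries, and Lck 14 in PS2APP and 12 in non-Tg libraries. The other 4 had at most 5 reads in PS2APP and 14 in non-Tg libraries, and none of the 9 had enough reads for the test.

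Age itself moved no member past the threshold. edgeR called 0 of 13994 genes for 15 against 14 months (7.95% at an unadjusted p under 0.05, and 10 called in DESeq2). The 6 tested members had age effects between -0.45 and 0.60 on the log2 scale, and 0 of them reached an unadjusted p under 0.05.

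The members did not vary together in a way that passed a test. Over the 9 PS2APP libraries, 15 pairs of members were correlated on log2 CPM, with exact permutation tests over all 362880 orders, and 0 pairs passed after adjustment over the 15. Ms4a4c and Ms4a6d had the highest Pearson r, 0.76 (exact permutation p = 0.0206, adjusted p = 0.155), with a Spearman rho of 0.67 (exact permutation p = 0.0589, adjusted p = 0.673). Their r was 0.47 without the 2 libraries farthest from the median of Ms4a4c. Ms4a4a and Ms4a7 had an r of 0.74 (exact permutation p = 0.0178, adjusted p = 0.155) and a rho of 0.58 (exact permutation p = 0.108, adjusted p = 0.673). Their r was 0.63 without the 2 libraries farthest from the median of Ms4a4a. Ms4a6b and Ms4a6c, next to each other among the members and with similar promoters, had an r of 0.34 (exact permutation p = 0.370, adjusted p = 0.771) and a rho of 0.40 (exact permutation p = 0.291, adjusted p = 0.673). Their r was 0.79 without the 2 libraries farthest from the median of Ms4a6b, so that value rests on which libraries enter. The libraries were picked on Ms4a6b alone, so a library far out in Ms4a6c could stay in. Over the 6 non-Tg libraries 0 of 15 pairs passed.

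Among 12194 genes, those whose levels followed a member most closely over the 9 PS2APP libraries were ranked as a description. For Ms4a6c they were 6030458C11Rik (Pearson r = 0.98), Fndc3a (0.94) and Qk (0.93), and in the 6 non-Tg libraries their r with Ms4a6c was 0.84, 0.39 and 0.43. Ms4a6b was followed by Sdad1 (0.96), Kmt5b (0.95) and Rnft1 (0.94), and Ms4a6d by Ubox5 (0.94), Dtx3l (0.93) and BC051537 (0.92). The closest to Ms4a7 were Tmed10-ps, Yipf5 and Trps1, to Ms4a4a Zbtb44, Apool and Zmym2, and to Ms4a4c Pabpc1, Megf9 and Myl12a. Of these 18 genes 0 were called for genotype. These r values were picked as the highest of 12194 over 9 points, they have no test, and the points share their library and depth.

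Promoter windows of 300 bases, from 250 before to 50 after the start (RefSeq, GRCm38.p6), matched 6 of the 7 members. The windows of Ms4a6b (chr19:11518309-11518608, plus strand) and Ms4a6c (chr19:11469118-11469417, plus strand) are shown. They were chosen because the 2 windows share most of their sequence while the 2 genes differ in spread. Capitals mark the core GGAAGT of the macrophage factor PU.1 on either strand.
Ms4a6b: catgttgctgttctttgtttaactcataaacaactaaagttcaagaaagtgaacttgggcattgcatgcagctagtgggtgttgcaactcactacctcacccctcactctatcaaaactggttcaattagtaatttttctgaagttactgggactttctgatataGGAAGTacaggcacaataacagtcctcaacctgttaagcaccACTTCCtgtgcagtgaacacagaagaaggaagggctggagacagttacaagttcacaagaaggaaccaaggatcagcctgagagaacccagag
Ms4a6c: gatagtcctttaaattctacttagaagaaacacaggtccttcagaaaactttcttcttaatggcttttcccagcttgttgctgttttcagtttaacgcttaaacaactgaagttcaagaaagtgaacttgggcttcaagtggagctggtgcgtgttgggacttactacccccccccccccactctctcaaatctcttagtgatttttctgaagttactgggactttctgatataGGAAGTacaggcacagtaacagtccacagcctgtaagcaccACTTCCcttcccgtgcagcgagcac
The 2 windows were identical at 86.2% of 218 aligned bases, and each held GGAAGT in both orientations. The core was found in 5 of 6 member windows, all but that of Ms4a4a, against 23.8% of 32851 windows of all genes. The C/EBP motif TTNNGNAA was found in 6 of 6 member windows, against 40.7% of all windows. The TATA box TATAAA (13.6% of all windows) and the AP-1 site TGANTCA (7.81%) were each found in 1 member window, that of Ms4a4b. CACGTG, the E-box of MITF and TFE factors (7.15% of all windows), and the interferon response and ETS-IRF elements (3.44% and 2.72%), which can overlap each other, were found in 0. Both strands were searched; a match is a description of letters and not a site, and the member windows are copies of each other in part.

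Genes whose products are tied to MS4A proteins were measured beside them. Of 12 listed partners 10 were tested, 1 rose in PS2APP and 0 fell, with a median log2 fold change of 0.23 against -0.02 over all genes. Clec7a, the beta-glucan receptor with which MS4A4A associates in human macrophages, ranged from 90.0 to 418 CPM in PS2APP libraries (median 261) and from 14.3 to 39.1 CPM in non-Tg libraries (median 25.8), with no overlap. It averaged 238 ± 98.5 CPM in PS2APP and 26.4 ± 10.05 CPM in non-Tg libraries, and its log2 fold change was 3.12 ± 0.31 (edgeR adjusted p = 1.9e-06). Trem2, the lipid receptor whose soluble form is associated with human MS4A variants, averaged 886 ± 258 CPM in PS2APP and 700 ± 256 CPM in non-Tg libraries (log2 fold change 0.41 ± 0.23, edgeR adjusted p = 0.496). Tyrobp, the signalling adaptor of TREM2, averaged 1202 ± 260 CPM in PS2APP and 875 ± 335 CPM in non-Tg libraries (0.52 ± 0.20, edgeR adjusted p = 0.266). For Nlrp3, an inflammasome sensor, the log2 fold change was -0.58 ± 0.21 (edgeR adjusted p = 0.232). The untested partners were Kit, with 36 reads in PS2APP and 7 in non-Tg libraries, and Vsig4, with 4 in PS2APP and 1 in non-Tg libraries.

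The rest of the family had few reads apart from the related genes Tmem176a and Tmem176b. Of 16 other family names 14 were matched, 2 were tested and neither was called. Tmem176a averaged 103 ± 42.2 CPM in PS2APP and 148 ± 60.2 CPM in non-Tg libraries (log2 fold change -0.57 ± 0.26, edgeR adjusted p = 0.394), and Tmem176b 259 ± 66.0 CPM in PS2APP and 317 ± 106 CPM in non-Tg libraries (adjusted p = 0.646). Ms4a14 had 113 reads in PS2APP and 95 in non-Tg libraries, and Ms4a4d 26 in PS2APP and 14 in non-Tg libraries. Ms4a1, which encodes CD20, had 0 reads in PS2APP and 1 in non-Tg libraries, and Ms4a2, the IgE receptor chain, 5 in PS2APP and 3 in non-Tg libraries. Ms4a15 had 4 reads in PS2APP and 1 in non-Tg libraries, and Ms4a8a 1 in PS2APP and 0 in non-Tg libraries. A further 6 genes had no read in any library, which over all 15 libraries allows a level of up to 0.0353 CPM.

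Markers of other cells that express family members are given as measured, and their part in the results above was not tested. Border-associated macrophage markers summed to 279 to 502 CPM in PS2APP and 212 to 641 CPM in non-Tg libraries, and 0 of 10 were called. Monocyte markers summed to 50.8 to 126 CPM in PS2APP and 47.8 to 192 CPM in non-Tg libraries; of 10 listed 5 were tested and 1, Cd44, rose (log2 fold change 2.14 ± 0.37, edgeR adjusted p = 0.00253). Ly6c2, a defining gene of classical monocytes, had 55 reads in PS2APP and 7 in non-Tg libraries and was not tested. T and NK cell markers summed to 0 to 9.21 CPM in PS2APP and 0 to 11.4 CPM in non-Tg libraries, and neutrophil markers to 0 to 8.72 CPM in PS2APP and 0 to 75.8 CPM in non-Tg libraries. Mast cell markers summed to 0 to 4.08 CPM in PS2APP and 0.125 to 0.654 CPM in non-Tg libraries, and none of these 3 lists had a tested gene. B cell markers summed to 21.5 to 59.0 CPM in PS2APP and 20.1 to 49.7 CPM in non-Tg libraries, with 0 of 2 tested genes called. Neuronal markers summed to 14.9 to 78.5 CPM in PS2APP and 78.6 to 206 CPM in non-Tg libraries, and 2 of 7 tested, Gad2 and Slc17a7, fell.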

How the data were processed

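Total RNA of sorted cells was sequenced and aligned to GRCm38 with GSNAP, per the submitters' processing notes; the version, annotation, library kit and strand were not stated in the sources used. Per the file headers, the deposited count is of reads uniquely aligning to a gene model, and the second deposited value is nRPKM, an RPKM adjusted by the authors' size factor. Counts were tested with edgeR 4.0.16 (R 4.3.3): filterByExpr on genotype, TMM scaling and a quasi-likelihood fit of age and genotype to 15 libraries, with Benjamini-Hochberg adjustment over 13994 genes and a threshold of 0.05. The interaction and each age alone were fitted likewise; intervals are 95%. The step was tested on simulated counts in which 200 of 13994 genes were changed 2-fold or 4-fold. The genotype test called 35% of 2-fold and 80% of 4-fold changes, and 6.50% of its calls were false. For age it called 33% and 82%, with 4.96% false. The interaction test called 0% of 2-fold and 19% of 4-fold changes, with 9.52% false. A change that was not called can therefore be present. No 2 libraries held identical counts. Alternatives included DESeq2 1.42.0, limma-voom in limma 3.58.1, other filters and scalings, and each library left out. Identities came from pairwise alignments in Biopython 1.88, global for coding sequences and local for promoter windows. MAFFT 7.526 aligned the coding sequences of each set of 3 genes to mark the bases that differ. The members, gene lists and rules for named genes were chosen with earlier results of these data known. The rule names every member, Trem2, Tyrobp, list genes with the smallest adjusted p and the 3 genes most like each member; overlaps, untested genes and left-out libraries were named after their values were seen.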

Additional observations from a re-analysis of the deposited data

Results flagged for a closer look

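Single libraries far from the rest of their group were looked for in 14 groups, 7 members in each genotype. Chance flags about 1 group in 20 where values are normally distributed. CPM of genes with few reads need not be, so the rate here may be higher. Ms4a4a was at 7.03 CPM in PS2APP sample 7, against 3.06 CPM in the next PS2APP library. This is also the library with the highest Ms4a6c, 174 CPM. Ms4a4b was at 0.498 CPM in PS2APP sample 14, which is 2 reads in a gene too low to test. Ms4a7 was at 14.7 CPM in non-Tg sample 9, against 5.73 CPM in the next non-Tg library, and sample 9 is among the 4 libraries high in immediate early genes.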

How the results depend on the processing

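No paired analysis was possible because the replicate numbers run through the series and are not shared between the genotypes. The depth limits Ms4a4b to at most 3 reads per library, Ms4a4a to at most 31, Ms4a4c to at most 57 and Ms4a7 to between 4 and 117, and the age groups are as small as 2 libraries. The genotype count of 165 was 648 with no count filter, 388 with DESeq2, 50 at 14 months and 65 at 15 months. It was 81 without the 3 libraries low in Xist and 118 to 188 with 1 library left out. With a neuron score, a level of neuronal markers given to each library, as a covariate it was 18. Summed neuronal markers did not overlap between the genotypes, with at most 78.5 CPM in PS2APP and at least 78.6 CPM in non-Tg libraries. That fit therefore cannot tell genotype from neuronal RNA. The SE of each tested member was larger in it, at 0.66 for Ms4a6c against 0.38 in the main fit. The age count of 0 was 103 with no filter and 10 with DESeq2, and 0 with any 1 library left out; the interaction count of 0 was 94, 6 and 0 to 3. Of the members 0 were called in all these fits except with no filter, where Ms4a6c was (log2 fold change 0.84, edgeR adjusted p = 0.0081; interaction 1.94, adjusted p = 0.0027); the cause was not tested. The direction turned for Ms4a6c at 14 months (-0.30) and for Ms4a7 at 15 months (-0.68) and without the 3 libraries low in Xist (-0.33). With 1 library left out it turned for the Ms4a7 genotype effect (-0.39 to 0.57), for the age effects of Ms4a4a (-0.040 to 0.87), Ms4a6c (-0.31 to 0.29), Ms4a6d (-0.10 to 0.021) and Ms4a7 (-0.45 to 0.20), and for the interactions of Ms4a4c (-1.15 to 0.18) and Ms4a6d (-0.070 to 0.17).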
